A study of Mus musculus with 6 samples.

Results

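The protein-folding and quality-control machinery of the endoplasmic reticulum (ER) was examined in the skull roof of transgenic mice that express collagen X with a deletion. The set held 36 genes, chosen by name for their work in the ER lumen or in the removal of misfolded proteins from it, and each was read from its brightest probe set that names a single gene. All 36 passed the filter on dim probe sets, out of 12859 genes tested. The controls were wild type and the 13del-tg animals carried a Col10a1-13del transgene and had bone overgrowth, as labelled. All were 10-day-old littermates, and the tissue was parietal bone taken whole as sections. The promoter that drives the transgene is not given in the sources used here. Each label names 3 biological replicates, but the columns of control 1 and 13del-tg 1 held the same value at all 45101 probe sets. That array, called the shared array, is shown apart, and 13del-tg 2 and 3 were set against controls 2 and 3. The deposited signals had a trimmed mean of 500.003 on every array. Col1a1, the main collagen of bone, had signals from 29585 to 48236 over the 5 distinct arrays. Col10a1 had 149.8 and 158.2 in the controls, 15689 and 11584 in 13del-tg and 152.2 on the shared array.

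Secreted and membrane proteins fold in the ER. BiP, an HSP70 chaperone, holds unfolded chains and releases them under the control of J-domain proteins and nucleotide exchange factors, disulfide isomerases form and shuffle disulfide bonds, and the lectins calnexin and calreticulin retain glycoproteins until they fold. Chains that fail are handed to ER-associated degradation (ERAD), in which lectins and membrane channels pass them to a ubiquitin ligase and to the ATPase VCP. When unfolded protein accumulates, the transcription factors ATF6 and spliced XBP1 raise many of these genes through promoter elements such as the ER stress element. Cells that secrete much collagen, such as osteoblasts and hypertrophic chondrocytes, depend on this machinery.

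In 13del-tg calvaria most of the 36 genes had somewhat higher signals than in controls, and none passed the test across all genes. Of the 36, 28 had a positive log2 difference (13del-tg minus control, on log2(signal + 16)) and 8 a negative one, with a median of 0.23 and a range from -0.28 to 0.75. Over all genes tested 41.2% were positive and the median was -0.074. By limma with Benjamini-Hochberg adjustment over all genes, 0 of 36 were higher and 0 lower at an adjusted p under 0.05, where 0.0156% and 0.0467% of all genes were called. The smallest adjusted p among them was 0.686. At an unadjusted p under 0.05, 4 of 36 were higher (1.49% of all genes) and 0 lower (5.31% of all genes). Both 13del-tg arrays lay above both controls for 15 of the 36 genes, against 13.4% of all genes, and below both for 3, against 26.3%. For the other 18 the groups overlapped. The 95% interval of the difference included 0 for 32 of the 36. With 2 arrays against 2, an exact two-sided permutation test of a single gene cannot give a p below 0.333.

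**Figure D1:**
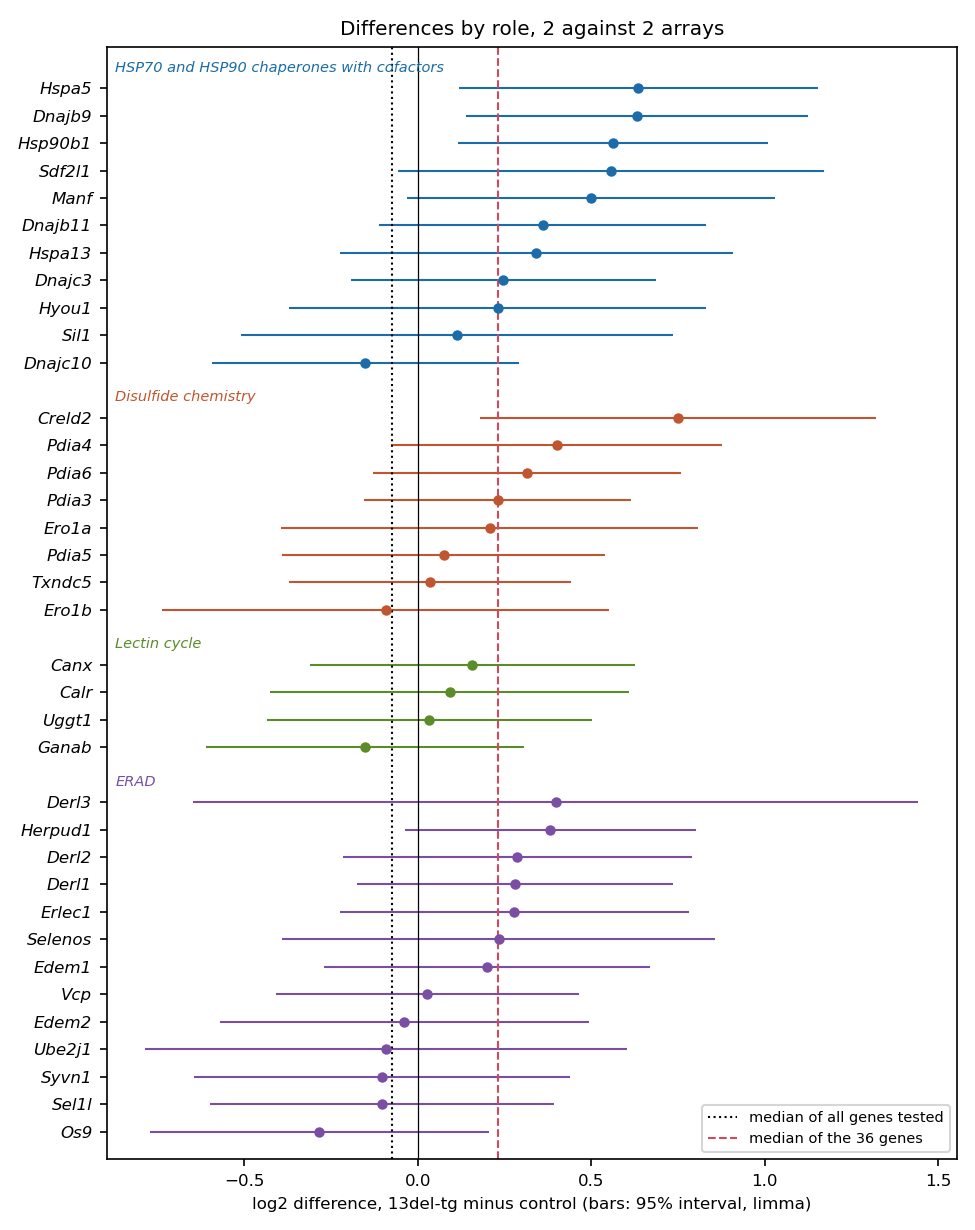
Log2 difference of each gene, 13del-tg minus control, from 2 arrays against 2, grouped by role on the vertical axis. Points are limma estimates and bars their 95% intervals, the dotted line marks the median of all genes tested (-0.074) and the dashed line the median of the 36 genes (0.23). Creld2, among the disulfide genes, lies farthest to the right at 0.75, the chaperones and cofactors have the highest median of the 4 role groups, and 4 intervals stay clear of 0.

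The genes of the set are bright on these arrays, and bright genes as a whole had higher values in 13del-tg. Of the 36, 21 were among the 3215 brightest genes tested by mean signal. Of those 3215, 60.8% had a positive difference, the median was 0.062 and 23.5% had both 13del-tg arrays above both controls. Of the 21, 18 were positive, 10 had both 13del-tg arrays above both controls and the median was 0.25. Another 11 were among the next 3214 genes by brightness, 8 of them positive with a median of 0.20, against 41.1% and -0.065 for all 3214. The set thus stood less far from genes of like brightness than from all genes, and the part of brightness in the result was not tested. Another scaling of the arrays kept the direction: with quantile normalization 27 of the 36 were positive with a median of 0.16 (all genes -0.025), and with arrays centred on their median 33 were positive with a median of 0.35 (all genes 0.044).

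**Figure D2:**
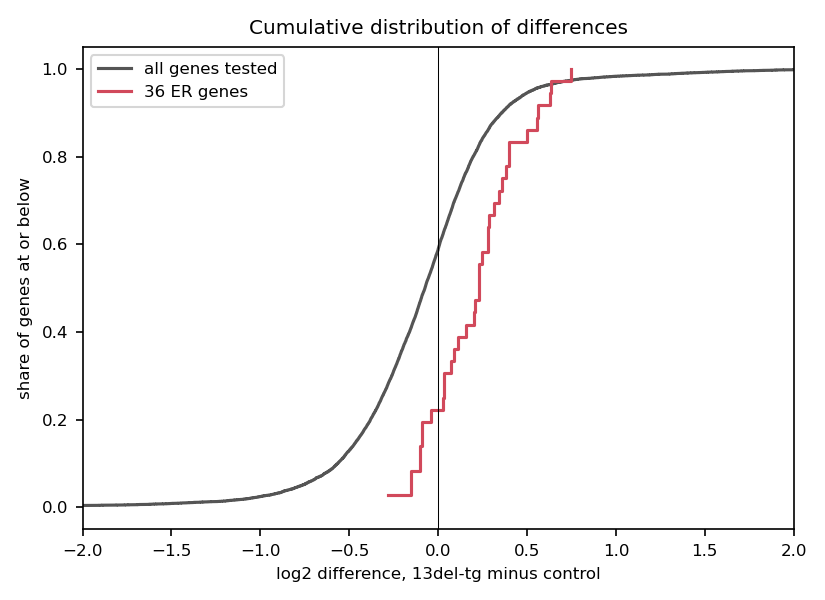
Share of genes (vertical axis) with a log2 difference at or below the value on the horizontal axis, for all 12859 genes tested and for the 36 ER genes. The horizontal axis is shown from -2 to 2. The curve of the ER genes lies to the right of the other through most of its range, and its top end, at 0.75, lies inside the range of all genes.

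The arrays of a group differed in this set. Against the mean of the controls, the median of the 36 genes was 0.12 in 13del-tg 2 and 0.33 in 13del-tg 3, and -0.0056 and 0.0056 in controls 2 and 3. Array 13del-tg 3 had the highest of the 5 signals for 21 genes, 13del-tg 2 for 8, control 3 for 4 and control 2 for 3. The shared array was highest for none and lowest for 18. Between 13del-tg 2 and 3 the median absolute log2 difference was 0.30, against 0.14 between the controls. Without 13del-tg 3 the median of the set was 0.12 (all genes -0.053), and without 13del-tg 2 it was 0.33 (all genes -0.095). Without control 2 it was 0.20 (all genes -0.094), and without control 3 it was 0.22 (all genes -0.063).

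**Figure D3:**
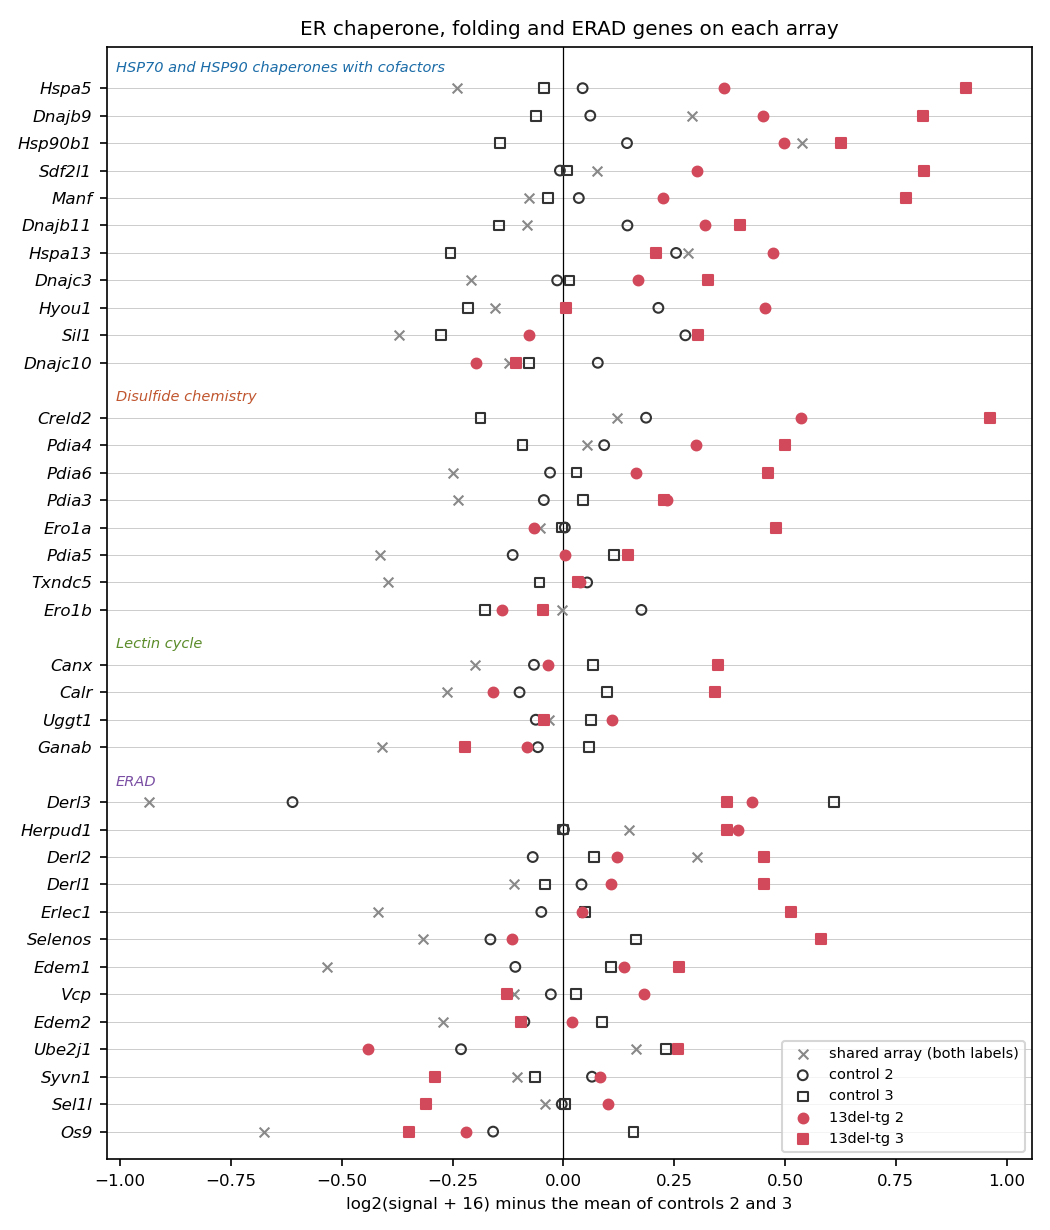
Log2(signal + 16) of each gene on each array, minus the mean of controls 2 and 3 (horizontal axis), grouped by role. Open dark symbols are controls, filled red symbols 13del-tg, and grey crosses the shared array, which carries both labels. The filled squares of 13del-tg 3 are farthest right for 21 genes, and the crosses are leftmost for 18.

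Promoter sequence was set beside the differences, since ATF6 and XBP1 act on many of these genes through it. RefSeq promoter windows of GRCm38.p6, from 250 bases before to 50 after each start, were found for 30 of the 36 genes. Hyou1, Manf, Derl1, Erlec1, Hspa13 and Sil1 had no entry. The ER stress element (ERSE) was searched on both strands as CCAAT, then 9 bases of any kind, then CCACG. It was present in 10 of the 30 genes (33.3%), against 39 of 32851 windows in the table (0.119%). A second form, ERSE-II, was searched as ATTGG, then 1 base, then CCACG. It was present in 2 of the 30, Herpud1 and Dnajb11, against 0.0365% of windows. The core of the unfolded protein response (UPR) element, TGACGTGG, was present in Txndc5, Ube2j1 and Vcp, against 0.676% of windows. ERSE holds a CCAAT box and a CCACG by construction, ERSE-II holds the same boxes with the CCAAT reversed, and the UPR element core contains CCACG on its other strand. Many of these genes are known targets of ATF6 or XBP1, so the match counts are a description of the set.

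The stretches below show the match with 15 bases on either side, on the strand of the gene, with the matched element in capitals. The first 6 belong to genes whose 13del-tg arrays both lay above both controls, and Calr and Syvn1 carry the element without that separation. Not printed are the matches of Dnajb11, which has the separation, and of Canx, Derl3 and Ero1b, which do not. In GRCm38.p6 they lie, in the order shown, at chr15:88819505-88819553, plus strand, at chr2:34772010-34772058, plus strand, at chr10:86705518-86705671, minus strand, at chr8:94386362-94386402, plus strand, at chr12:17266476-17266524, plus strand, at chr14:118937812-118937860, plus strand, at chr8:84847060-84847108, minus strand, and at chr19:6046517-6046565, plus strand. Hsp90b1 has a pair of ERSE matches, in opposite directions, and in Creld2 and Calr the element runs in the reverse direction.
Creld2: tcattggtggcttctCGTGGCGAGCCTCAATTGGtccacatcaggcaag
Hspa5: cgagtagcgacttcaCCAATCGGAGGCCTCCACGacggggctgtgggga
Hsp90b1: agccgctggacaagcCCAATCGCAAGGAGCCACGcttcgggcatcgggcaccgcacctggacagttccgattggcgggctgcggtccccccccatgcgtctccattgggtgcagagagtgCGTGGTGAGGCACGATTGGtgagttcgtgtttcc
Herpud1: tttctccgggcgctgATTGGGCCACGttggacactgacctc
Pdia6: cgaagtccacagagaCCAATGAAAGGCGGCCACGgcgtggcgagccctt
Dnajc3: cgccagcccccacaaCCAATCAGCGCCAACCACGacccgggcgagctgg
Calr: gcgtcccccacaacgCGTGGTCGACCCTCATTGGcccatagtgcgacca
Syvn1: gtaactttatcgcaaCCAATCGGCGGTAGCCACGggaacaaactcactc

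Counting the first base of the transcript as 1, the match in Hspa5 ran from base -65 to -47, that in Pdia6 from -98 to -80 and that in Creld2 from -126 to -108. The matches in Hsp90b1 ran from -212 to -194 and from -107 to -89. In Dnajb11 the ERSE-II match lay inside the transcript, from base 8 to 18.

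The 12 genes with ERSE or ERSE-II had a median difference of 0.34, with 10 positive and 7 with both 13del-tg arrays above both controls. The 18 with neither had a median of 0.055, with 12 positive and 6 above. Over all genes tested 41.2% were positive and 13.4% had both 13del-tg arrays above both controls. The genes without a window stand in neither group, and all of them were positive, from 0.11 (Sil1) to 0.50 (Manf). The ranges overlapped: among the genes with ERSE, Ero1b and Syvn1 were negative, at -0.092 and -0.10, and among those without a match Dnajb9 and Sdf2l1 were at 0.63 and 0.56, beside 0.63 for Hspa5 (BiP). Outside the set, 5 tested genes had an ERSE match, with a median of -0.29 and 20% positive, and 6 had an ERSE-II match, with a median of -0.024 and 50% positive. The 3 genes with the UPR element core had differences between -0.091 and 0.035. No test was made between these groups.

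**Figure D4:**
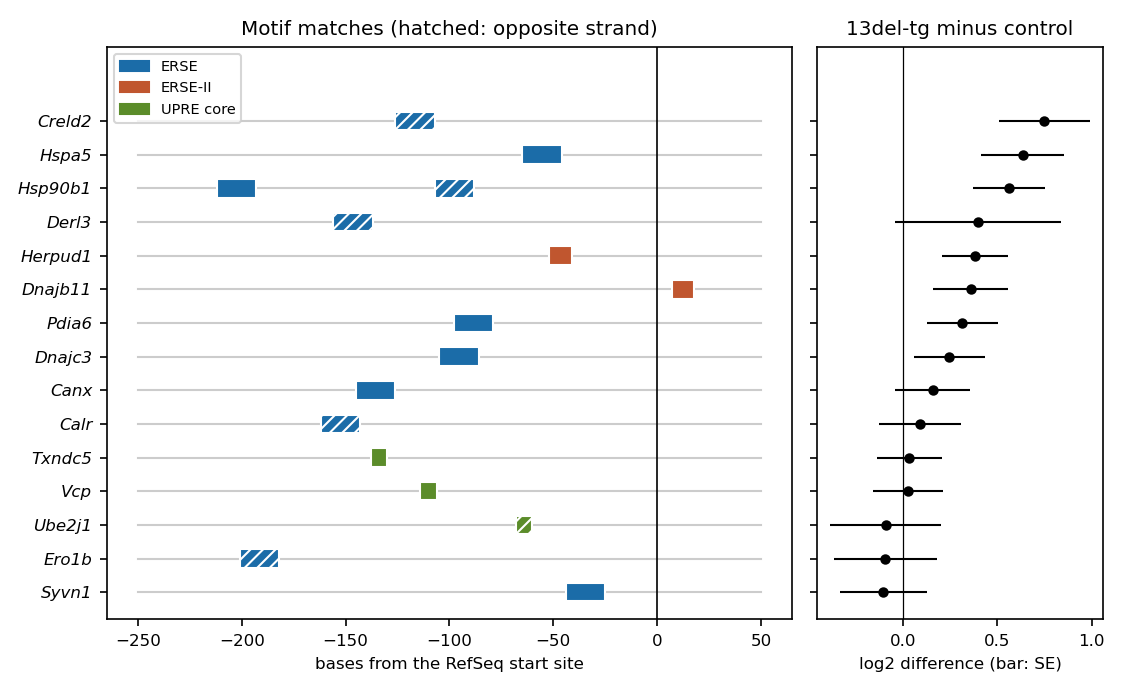
Left, position of each motif match (bases from the RefSeq start site, window from 250 before to 50 after the start) for the 15 genes that have one, hatched where it lies on the opposite strand. Right, log2 difference of the same gene with its SE, 13del-tg minus control, sorted from high to low. Creld2, Hspa5 and Hsp90b1, each with ERSE, are at the top, and Ero1b and Syvn1, also with ERSE, are at the bottom.

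The chaperones of the HSP70 and HSP90 families and their cofactors had the highest median of the 4 role groups, 0.36, with a range from -0.15 to 0.63. Of the 11, 10 were positive and 7 had both 13del-tg arrays above both controls, against 13.4% of all genes. Hspa5 encodes BiP itself. Its signal was 11868 and 11172 in controls 2 and 3, 14798 and 21624 in 13del-tg 2 and 3, and 9748 on the shared array. Both 13del-tg arrays lay above both controls, the third replicate by more, and the shared array lay below all. The log2 difference was 0.63 (SE 0.22, 95% interval 0.12 to 1.15, limma adjusted p = 0.697), about 1.55-fold.

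Hsp90b1 encodes GRP94, the HSP90 of the ER. It had 4182 and 3424 in the controls, 5352 and 5849 in 13del-tg, and 5503 on the shared array. The groups were apart, and the shared array lay inside the range of 13del-tg. The difference was 0.56 (SE 0.19, limma adjusted p = 0.697).

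Of the J-domain proteins that deliver clients to BiP, Dnajb9 (ERdj4) had 1612 and 1480 in the controls, 2118 and 2721 in 13del-tg and 1893 on the shared array, which lay between the groups. Its difference was 0.63 (SE 0.21, limma adjusted p = 0.697). Dnajb11 (ERdj3) had 1854 and 1514 against 2096 and 2214, a difference of 0.36 (SE 0.20). For Dnajc3 (p58IPK) the values were 1874 and 1911 against 2128 and 2376, a difference of 0.25 (SE 0.19). These 3 J-domain genes had no overlap between groups in the higher direction. The fourth, Dnajc10 (ERdj5, a reductase that also serves degradation), went the other way: it had 2277 and 2043 in the controls and 1880 and 2001 in 13del-tg, a difference of -0.15 (SE 0.19), with the groups apart.

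Sdf2l1, a partner of ERdj3, had 410.8 and 415.4 in the controls against 512.9 and 737.9 in 13del-tg, a difference of 0.56 (SE 0.26). Manf, a small ER protein that binds BiP and can be secreted, had 4190 and 3991 against 4780 and 6999, a difference of 0.50 (SE 0.22). In both, the controls were close together and 13del-tg 3 stood well above 13del-tg 2. The nucleotide exchange factors of BiP had overlapping groups: the difference of Hyou1 was 0.23 (SE 0.25) and that of Sil1 0.11 (SE 0.26). So did Hspa13, an HSP70-like ATPase, at 0.34 (SE 0.24).

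Among the 8 genes of disulfide chemistry 7 were positive, with a median of 0.22. Both 13del-tg arrays lay above both controls for 4 of them, against 13.4% of all genes. Creld2, an ER protein known to be induced by ER stress, had the largest difference of the 36. Its signal was 1255 and 965.3 in the controls, 1603 and 2161 in 13del-tg, and 1200 on the shared array, inside the range of the controls. The groups were apart, with a difference of 0.75 (SE 0.24, 95% interval 0.18 to 1.32, limma adjusted p = 0.686), about 1.68-fold.

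The disulfide isomerases gave smaller values. Pdia4 (ERp72) had 1349 and 1185 against 1559 and 1796, a difference of 0.40 (SE 0.20). Pdia6 (P5) had 4179 and 4357 against 4785 and 5888, a difference of 0.31 (SE 0.19). Pdia3 (ERp57), the isomerase that works with calnexin and calreticulin, had 12711 and 13511 against 15408 and 15343, a difference of 0.23 (SE 0.16). In all 3 both 13del-tg arrays lay above both controls. Pdia5 (0.075, SE 0.20) and Txndc5 (0.035, SE 0.17), another thioredoxin-fold isomerase, had overlapping groups. The oxidases that recharge the isomerases did too: Ero1a had 0.21 (SE 0.25), with 621.1 and 912.9 in 13del-tg on either side of 652.1 and 648.9 in the controls, and Ero1b had -0.092 (SE 0.27).

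Of the 4 genes of the lectin cycle 3 were positive, with a median of 0.063. None had both 13del-tg arrays above both controls, against 13.4% of all genes. The lectin chaperone genes Canx and Calr had differences of 0.16 (SE 0.20) and 0.091 (SE 0.22), with 13del-tg 2 between or below the controls and 13del-tg 3 above them. Uggt1, the glucosyltransferase that marks unfolded glycoproteins for another round, had 0.034 (SE 0.20). Ganab, the catalytic subunit of glucosidase II, had 1459 and 1581 in the controls and 1433 and 1301 in 13del-tg, a difference of -0.15 (SE 0.19), again lower on each 13del-tg array. With quantile normalization Calr turned to -0.051. The 95% intervals ran from -0.31 to 0.62 for Canx and from -0.43 to 0.61 for Calr.

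The ERAD genes were mixed. Of 13, 8 were positive and 5 negative, and the median was 0.20. Both 13del-tg arrays lay above both controls for 4 and below both for 1, against 13.4% and 26.3% of all genes. Herpud1, a membrane scaffold of the degradation complex, had close replicates in both groups: 2301 and 2296 in the controls, 3026 and 2975 in 13del-tg, and 2549 on the shared array, between the groups. Its difference was 0.38 (SE 0.18, limma adjusted p = 0.715). The derlins, membrane proteins of the channel, came next. Derl1 had 5051 and 4771 against 5288 and 6726, a difference of 0.28 (SE 0.19), and Derl2 had 1149 and 1266 against 1313 and 1656, a difference of 0.29 (SE 0.21). Edem1, which directs glycoproteins to degradation, was the fourth with its groups apart, at 0.20 (SE 0.20).

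Derl3 was dim and its controls were far apart, at 85.9 and 221.7, with 193.1 and 185.1 in 13del-tg between them. Its difference of 0.40 (SE 0.44) therefore had a wide interval, from -0.65 to 1.44. The core of the HRD1 ubiquitin ligase had no such direction: Sel1l, its adaptor, had -0.10 (SE 0.21), Syvn1, the ligase HRD1, -0.10 (SE 0.23), and Ube2j1, a ubiquitin-conjugating enzyme, -0.091 (SE 0.29). All 3 had overlapping groups. The substrate lectins differed from each other, Os9 at -0.28 (SE 0.21) and Erlec1 at 0.28 (SE 0.21). Os9 had 1625 and 2028 in the controls and 1558 and 1422 in 13del-tg, lower on each 13del-tg array, and Erlec1 had 4143 and 4439 against 4418 and 6133, with overlap. Selenos, which recruits VCP to the membrane, had 0.23 (SE 0.26), Vcp 0.028 (SE 0.18) and Edem2, another glycoprotein-trimming factor, -0.039 (SE 0.22), all with overlap.

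Other probe sets of the same genes bear on these values. The 36 genes had 84 probe sets, of which 78 were kept, and 25 genes had more than 1 kept probe set. For 14 of the 25, the kept probe sets gave both signs. The 42 kept probe sets that were not the brightest of their gene were 21 positive and 21 negative, with a median of 0.0015. Hspa5 had 3: the second had 5762 and 5216 in the controls and 8476 and 9449 in 13del-tg (difference 0.71), and the third, with the lowest signals of the 3, gave 0.011. The second probe set of Hsp90b1 gave 0.057. Those of Herpud1 (0.27), Pdia6 (0.36) and Edem1 (0.44) and both others of Selenos (0.53 and 0.58) were positive as the brightest was. In contrast, Ube2j1 went from -0.091 to 0.51, and Canx (-0.043 and -0.27) and Ero1a (-0.15 and -0.11) turned negative. With the mean of a gene's kept probe sets the median of the set was 0.11 and that of all genes -0.087, and with the dimmest kept probe set they were 0.038 and -0.099. Creld2, Dnajb9, Dnajb11, Sdf2l1 and Manf had a single probe set.

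**Figure D5:**
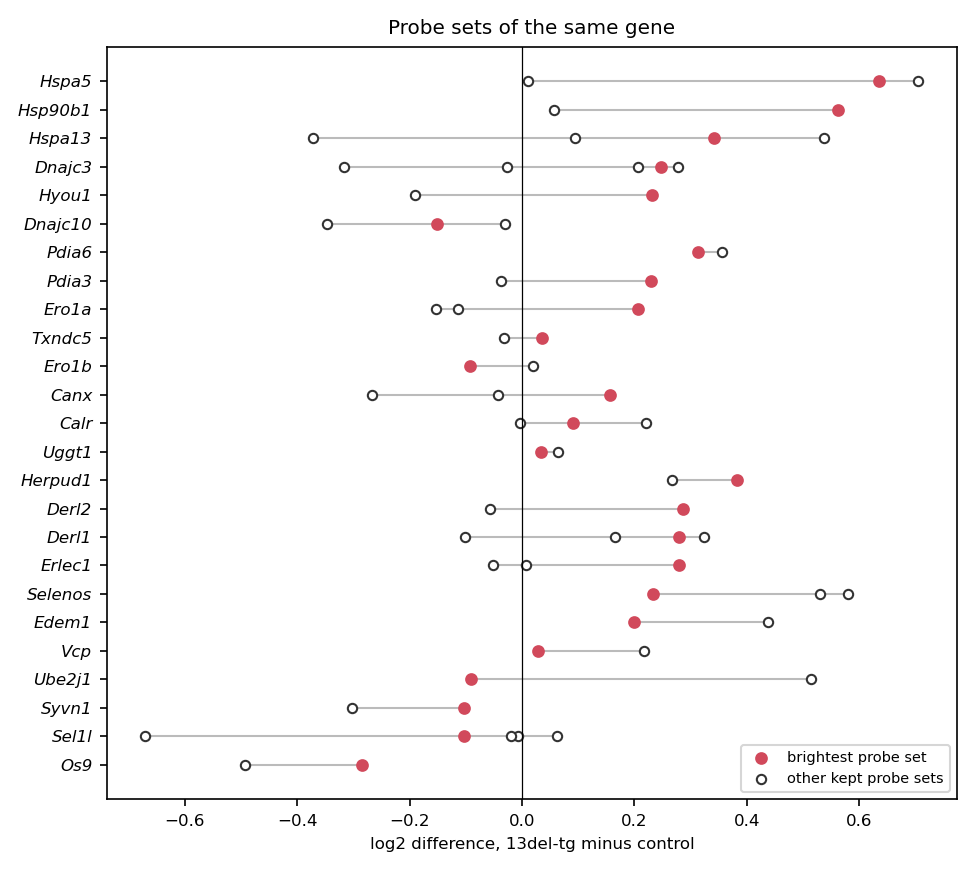
Log2 difference, 13del-tg minus control, of each kept probe set of the 25 genes that have more than 1. Red points are the brightest probe set, used elsewhere in the text, and open points the others. In 14 genes the points lie on both sides of 0, among them Ube2j1, Canx and Sel1l.

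The shared array did not follow either group throughout. It was above both controls for 6 genes (Hsp90b1, Dnajb9, Sdf2l1, Herpud1, Derl2 and Hspa13) and below both for 23, and its median against the mean of the controls was -0.12. Counted as a control, it left the median of the set at 0.27. Counted as 13del-tg only, it brought the median to 0.048 with 21 positive. Then 2 genes were higher at a limma unadjusted p under 0.05, against 2.82% of all genes. Under both labels, 3 against 3, the median was 0.15. An array in both groups cancels out and shrinks each difference by the same factor, so the signs were fixed beforehand. No gene was higher at a limma unadjusted p under 0.05 (0.132% of all genes). No groups could be apart, since 1 array stood in both.

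The regulators of the pathway were divided. Of 16 stress sensors and transcription factors, all tested, 7 were positive and 9 negative, the median was -0.040, and 0 passed the adjusted threshold of limma either way. Both 13del-tg arrays lay above both controls for 7 of the 16 and below them for 4, against 13.4% and 26.3% of all genes. At an unadjusted p under 0.05 there were 3 higher, Atf3, Ddit3 and Nupr1, and 0 lower, against 1.49% and 5.31% of all genes. Xbp1, whose spliced form drives chaperone and ERAD genes, had 11514 and 9822 in the controls against 14049 and 14146 in 13del-tg, and 9987 on the shared array. Both 13del-tg arrays were above both controls, with a difference of 0.41 (SE 0.17, limma adjusted p = 0.715). A probe set of this kind does not tell spliced from unspliced Xbp1. Ddit3, which encodes CHOP, had 650.4 and 545.9 against 906.4 and 1338, a difference of 0.87 (SE 0.26, limma adjusted p = 0.635). Atf3, a stress-induced transcription factor, had the largest difference of the 16, with 98.4 and 139.4 in the controls, 442.5 and 696.6 in 13del-tg and 85.9 on the shared array (2.10, SE 0.33, limma adjusted p = 0.161). Nupr1, a stress-induced chromatin protein, had 6386 and 6640 against 10637 and 13132 (0.86, SE 0.18, limma adjusted p = 0.387). Atf3 and Nupr1 were chosen after their values were seen. The sensor genes had negative differences: Ern1 (IRE1) had -0.27 (SE 0.34), Eif2ak3 (PERK) -0.15 (SE 0.21) and Atf6 -0.43 (SE 0.21), and Atf6 was lower on each 13del-tg array than on either control. Atf4, the translation-controlled factor of the PERK branch, had 0.17 (SE 0.17).

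Of 73 further genes of ER folding and degradation, 68 were tested. In that list 47 were positive and 21 negative, with a median of 0.12, and 0 passed the adjusted threshold of limma either way. The unadjusted count was 2 higher and 2 lower of 68, against 1.49% and 5.31% of all genes. Both 13del-tg arrays lay above both controls for 23 of the 68 and below both for 5, against 13.4% and 26.3%. The 4 with the smallest unadjusted p were Pdia2, an isomerase (-1.33, SE 0.37), Tmx4, a membrane thioredoxin-like protein (-0.50, SE 0.20), Fkbp2, a prolyl isomerase (0.51, SE 0.21), and Ubxn8, a tether of VCP to the ER membrane (0.59, SE 0.24). These genes followed the arrays in the order of the 36, with medians of 0.048 in 13del-tg 2, 0.19 in 13del-tg 3 and -0.24 on the shared array, against the mean of the controls.

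Markers of cells of the bone and of other tissues also differed between the arrays. The osteoblast markers were 5 of 8 positive with a median of 0.11, and their summed signal ran from 119610 to 132180 in the controls and from 135830 to 148600 in 13del-tg, with 84998 on the shared array. These sums were mostly Col1a1 and Col1a2, at 42618 and 45884 in control 2, and Sp7, Alpl and Bmp8a had negative differences. The osteoblast medians had the order of arrays of the ER genes but other sizes. They were 0.095 and 0.14 in 13del-tg 2 and 3 and -0.58 on the shared array, against 0.12, 0.33 and -0.12 for the ER genes. Markers of erythroid cells (5 of 5 negative, median -2.11), B cells (8 of 8, -1.49) and neutrophils (10 of 10, -0.81) had lower values in 13del-tg. Summed erythroid signals were 11981 and 14532 in the controls against 3106 and 4197 in 13del-tg, and summed B cell signals 8130 and 9146 against 2439 and 4710. Neutrophil sums overlapped, at 43342 and 62603 against 18535 and 58776. Of the plasma cell markers, another cell rich in ER, 6 of 7 were negative and the positive one was Xbp1. Their sums, 16151 and 16796 against 16503 and 18529, were mostly Xbp1, at 11514 and 9822 against 14049 and 14146. Mzb1, Prdm1 and Irf4 were lower on each 13del-tg array than on either control. Markers of skeletal muscle were 7 of 8 positive with a median of 1.60, and their sums were 144770 and 26064 in the controls, 199600 and 155370 in 13del-tg and 171650 on the shared array, so that control 3 stood apart from the other arrays. Pineal and photoreceptor markers were 8 of 8 negative with a median of -4.24, with sums of 4929 and 10327 against 438 and 470.9, and 661.3 on the shared array. Osteoclast markers were 8 of 8 negative (median -0.36), cartilage markers 9 of 10 negative (-0.83), mast cell markers 4 of 4 (-0.33) and brain markers 3 of 4 (-0.69). The summed signals of each of these lists overlapped between the groups. Cartilage sums were 46380 and 23168 in the controls against 33282 and 23519 in 13del-tg, and brain sums 2235 and 2924 against 3839 and 1207. Osteocyte markers had 3 of 5 positive (median 0.014), macrophage markers 3 of 6 (0.0079) and epidermal markers 1 of 2 (-0.19). The 4 hypertrophic chondrocyte markers were all positive, with a median of 0.40. Col10a1 among them is the gene that the transgene carries. Of the others, Ihh had both 13del-tg arrays above both controls, and Panx3 and Mmp13 had overlapping groups. No marker of any of these lists was listed at 0. In tissue taken whole, fewer cells of a type and less RNA per cell cannot be told apart. The part of these cell types and tissues in the ER gene values was not tested.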

How the data were processed

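RNA of calvaria sections was amplified, biotin-labelled and hybridised to 1 array per sample, per the labels' protocols. Each array's deposited signals are linear intensities of probe sets, made by the authors with MAS5 per the submitters' processing notes; no version is stated there. They had been brought to a common trimmed mean, so each value is relative to the signal of its array as a whole. No detection calls were used here, and the number of arrays limits the precision.

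Signals were transformed as log2(signal + 16). The 64 control probe sets were left out, those whose mean log2 value over the distinct arrays reached the 40th percentile (6.28) were kept (27022), and the brightest one with a single symbol stood for each gene. Names came from the platform annotation, where 34945 probe sets had 1 symbol, 932 several and 9160 none, updated by gene number for 34741. limma 3.58.1 in R 4.3.3 (lmFit, eBayes with trend; 2 residual and 5.01 prior degrees of freedom) tested 13del-tg minus control, two-sided; p-values were adjusted by Benjamini-Hochberg across all genes and called under 0.05. Folds on this scale understate changes of dim genes.

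The members, role groups and lists were chosen with earlier results of these data known. All 36 members are accounted for, those with an unadjusted p under 0.05 in full; Xbp1, Ern1, Eif2ak3, Atf6, Atf4, Ddit3 and Col10a1 are named by rule, with 4 genes of the further ER list by smallest p. Col1a1 is named as a tissue check. A planned description of protein sequence was not made. Alternatives were the pseudocount, filter, normalization, variance model, probe set, each array left out, a replicate block and the shared array.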

Additional observations from a re-analysis of the deposited data

Results flagged for a closer look

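The shared array, which carries both labels and stays out of the comparison of 13del-tg 2 and 3 with controls 2 and 3, had signals above both controls for 6 of the 36 genes. Hsp90b1 had 5502.7 there, against 4182 and 3424 in controls 2 and 3. Dnajb9 had 1892.7, against 1612 and 1480. Herpud1 had 2548.8, against 2301 and 2296. Derl2 had 1489.9, against 1149 and 1266. Sdf2l1 had 436.3, against 410.8 and 415.4, and Hspa13 had 1837.7, against 1804 and 1263. For Hsp90b1, Derl2 and Hspa13 the shared array lay inside the range of the 13del-tg arrays, and for the other genes between the groups. Col10a1 had 152.2 on the shared array, inside the range of the controls (149.8 and 158.2) and far below 13del-tg (15689 and 11584). Which animal the array came from was not tested.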

How the results depend on the processing

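Under 18 alternatives the median of the 36 genes stayed positive. It moved by more than the spread between arrays (0.11) with arrays centred on the median (0.35, with all genes at 0.044), the mean of kept probe sets (0.11), the dimmest kept probe set (0.038), the shared array counted with 13del-tg alone (0.048) and without 13del-tg 3 (0.12). As each array was left out it ranged from 0.12 to 0.33. Several alternatives could not change a sign: the variance models, no filter and the replicate block left each gene's difference as it was. The shared array under both labels only shrank each difference by the same factor. The count of genes past the adjusted threshold was 0 in each direction under every alternative but the replicate block, with 2 higher, Hspa5 (adjusted p = 0.0231) and Creld2 (adjusted p = 0.0218). The replicate numbers are not labelled as pairs, and deviations of same-numbered arrays correlated at 0.273 over genes. That paired fit has few residual degrees of freedom and called 271 genes higher and 338 lower overall. Genes higher at an unadjusted p under 0.05, 4 of 36, were 7 with centred arrays, 2 without the trend, 2 with the shared array counted with 13del-tg alone, 0 with it under both labels, and 0 to 8 as each array was left out. Genes above both controls were 15, against 13.4% of all genes. They were 23 with centred arrays, 5 with the shared array counted with 13del-tg alone, 0 with it under both labels, and 20 to 23 without an array. Genes below both were 3, against 26.3% of all genes. They were 7 with the dimmest probe set, 0 with the shared array counted with the controls alone or under both labels, and 5 to 7 without an array. The shares of all genes separated under these alternatives are not given here. Fewer arrays make separation easier by construction.

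Single genes kept their sign in 13 of 36 cases, and 54 of 647 values turned. The 647 include the values from the alternatives named above that could not turn a sign. The 60th percentile filter removed Derl3. Turned values were, with the dimmest probe set, Pdia3 -0.038, Canx -0.27, Dnajc3 -0.32, Hyou1 -0.19, Derl1 -0.10, Derl2 -0.057, Erlec1 -0.052, Ero1a -0.11, Ero1b 0.019, Txndc5 -0.032, Hspa13 -0.37 and Ube2j1 0.51; with the mean of probe sets, Canx -0.051, Ero1a -0.020 and Ube2j1 0.21; with quantile normalization, Calr -0.051, Edem2 0.040, Vcp -0.11, Ero1b 0.053 and Txndc5 -0.072; with centred arrays, Edem2 0.079, Sel1l 0.013, Syvn1 0.014, Ero1b 0.026 and Ube2j1 0.027; with the shared array counted with 13del-tg alone, Pdia5 -0.088, Calr -0.026, Edem1 -0.045, Derl3 -0.046, Vcp -0.018, Txndc5 -0.11 and Sil1 -0.048; and with it as control only, Edem2 0.052. Leaving out 1 array turned the sign within these ranges: Pdia5 -0.040 to 0.19, Calr -0.16 to 0.34, Canx -0.036 to 0.35, Edem2 -0.13 to 0.049, Sel1l -0.31 to 0.10, Syvn1 -0.29 to 0.084, Derl3 -0.21 to 1.01, Selenos -0.12 to 0.58, Vcp -0.13 to 0.18, Ero1a -0.065 to 0.48, Ero1b -0.27 to 0.084, Txndc5 -0.019 to 0.089, Uggt1 -0.044 to 0.11, Sil1 -0.16 to 0.39, Ube2j1 -0.44 to 0.26. The cause was not tested.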
